A study of Sus scrofa with 28 samples.

Results

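The genes described here are 8 genes of lipid-associated macrophages, the phagocytes that take up cell debris and lipid in injured tissue: SPP1, TREM2, GPNMB, CD68, APOE, LGMN, TYROBP and FABP5. They were taken by gene symbol from the tables of 17603 genes, and each symbol matched 1 row. All 8 of them passed the filter on low counts. Bulk RNA sequencing was done on hearts of Landrace pigs, male and female, that were 3 months old. The left anterior descending coronary artery was closed with a balloon for 60 minutes and then reperfused, and the pigs received 1 intracoronary dose of recombinant human agrin (33 µg/kg, labelled Agrin; rhAgrin in the study) or saline alone (labelled PBS). Agrin is a glycoprotein of the extracellular matrix. From each heart an infarct zone and a remote zone of the left ventricle were dissected after tetrazolium staining, and each zone gave 1 library. The 28 libraries came from 14 animals and fell into 8 groups: infarct and remote zones of 4 Agrin and 3 PBS animals at day 28, and of 4 Agrin and 3 PBS animals at day 3. Every animal was infarcted, so the remote zone and not a healthy heart was the baseline.

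In mice and humans, TREM2 is a surface receptor for lipids and lipoproteins that signals through its partner TYROBP, an adaptor with an immunoreceptor tyrosine-based activation motif. APOE is the apolipoprotein that carries the lipids which macrophages clear, and it can bind TREM2. Macrophages that clear dying cells raise the lysosomal proteins CD68 and LGMN, the lysosome-associated membrane protein GPNMB, the fatty acid chaperone FABP5 and the secreted matrix protein SPP1 (osteopontin). In the infarcted heart such cells derive largely from blood monocytes and lie in the damaged tissue. APOE, SPP1, GPNMB and FABP5 are also made by other cell types. In bulk tissue, fewer cells of a type and less RNA per cell cannot be told apart.

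In the RefSeq annotation of Sscrofa11.1 all 8 are protein-coding genes on separate stretches of 6 chromosomes. SPP1 lies at chr8:131077786-131085334 on the minus strand (7 exons), GPNMB at chr9:92037428-92071501 on the plus strand (11 to 12 exons) and CD68 at chr12:52874754-52877256 on the plus strand (6 exons). TREM2 (chr7:36465921-36471509, 5 exons) and LGMN (chr7:114176217-114210096, 14 exons) are both on the minus strand of chromosome 7. APOE (chr6:51373113-51375333, plus strand, 3 exons) and TYROBP (chr6:45309199-45312562, minus strand, 5 exons) share chromosome 6, and FABP5 is at chr4:55277831-55282585 on the minus strand (4 exons). No other RefSeq gene overlapped any of them.

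Because 7 of the 8 genes were called higher together in the day 3 infarct zone, the promoters of all 8 (250 bases before to 50 bases after the annotated RNA start) were searched on both strands for 5 motifs: the E-box CACGTG and the M-box TCATGTG bound by the MITF and TFE family, the PU.1 core GAGGAAGT, the AP-1 site TGANTCA and the TATA box TATAAA. The 3 promoters that held an AP-1 or a PU.1 motif are printed 5′ to 3′ on the strand of the gene (RefSeq, Sscrofa11.1), with the motif in capitals. In CD68 the capitals mark AP-1 matches that begin 109 and 74 bases before the start, in GPNMB an AP-1 match that begins 3 bases before it, and in TYROBP the PU.1 core on the other strand, read here as its reverse complement, at base 19 after it.
CD68 promoter: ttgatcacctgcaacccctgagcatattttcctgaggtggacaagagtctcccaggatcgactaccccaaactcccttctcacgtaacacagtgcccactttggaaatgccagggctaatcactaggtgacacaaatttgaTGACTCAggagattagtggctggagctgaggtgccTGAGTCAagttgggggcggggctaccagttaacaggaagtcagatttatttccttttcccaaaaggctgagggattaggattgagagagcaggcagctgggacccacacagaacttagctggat
GPNMB promoter: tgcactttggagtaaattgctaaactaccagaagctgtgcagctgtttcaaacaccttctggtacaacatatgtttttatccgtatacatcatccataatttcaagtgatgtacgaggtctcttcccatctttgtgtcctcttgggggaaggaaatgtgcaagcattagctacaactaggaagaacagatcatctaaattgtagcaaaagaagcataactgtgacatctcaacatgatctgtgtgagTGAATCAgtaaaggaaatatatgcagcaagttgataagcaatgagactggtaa
TYROBP promoter: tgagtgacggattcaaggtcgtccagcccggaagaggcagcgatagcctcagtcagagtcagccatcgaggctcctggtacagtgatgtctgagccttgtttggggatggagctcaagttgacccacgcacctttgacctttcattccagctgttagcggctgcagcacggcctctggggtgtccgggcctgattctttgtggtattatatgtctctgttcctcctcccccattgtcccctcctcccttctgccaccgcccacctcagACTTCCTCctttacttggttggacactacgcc
Among 19556 promoters of the same length, 6.07% held the AP-1 motif, 2.17% the PU.1 core, 10.9% the TATA box, 7.92% the E-box and 2.36% the M-box. FABP5 held a TATA box 29 bases before its start, and a second match on the other strand overlapped it. SPP1, TREM2, APOE and LGMN held none of the 5 motifs in this window. These matches describe the sequence only.

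Library totals ranged from 15383495 to 34767278 counts. The share of counts on mitochondrial genes was 6.825 to 34.47% for infarcts of day 28 (23.11 to 35.33% for their remote zones) and 5.783 to 10.56% for infarcts of day 3 (29.13 to 34.07% for their remote zones). The 6 measured genes of cardiomyocytes were detected in every group, and their levels summed to 7694 to 54533 CPM for infarcts of day 28, 30628 to 56361 CPM for remote zones of day 28, 2101 to 14413 CPM for infarcts of day 3 and 49025 to 66547 CPM for remote zones of day 3. The zones of the animal labelled 573 (PBS, day 3) did not match: the Y-linked genes ZFY, KDM5D and EIF1AY were counted 328, 173 and 232 times in its infarct and 0 times in its remote zone, whereas the zones of the other 13 animals agreed. The libraries labelled 573 may therefore come from different animals. Results of day 3 PBS animals are also given without this animal where that changes a call or a sign. Where nothing else is said, levels are counts-per-million (CPM) values after TMM scaling of the library sizes (a trimmed mean of ratios between libraries), values after ± are SD for levels and SE for log2 fold changes, and adjusted p-values are from edgeR with Benjamini-Hochberg adjustment over all genes tested. To be called, a gene needed an adjusted p under 0.05, a change of at least 1 on the log2 scale in either direction, and more than 30 counts in its highest library.

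Between the zones, 7 of the 8 genes were called higher in the infarct at day 3 under both treatments. FABP5 was higher there too but fell short of the fold threshold (0.94 in Agrin and 0.91 in PBS animals). Fewer genes were called at day 28. There, 0 of 8 genes were called in Agrin animals and 5 of 8 in PBS animals, all 5 higher in the infarct zone (SPP1, TREM2, GPNMB, CD68 and APOE). The background of all 15409 genes tested was 0% called in either direction in Agrin animals and 5.58% called higher in PBS animals. At day 3 the 7 called genes stood against a background of 19.3% of genes called higher in Agrin animals and 18.2% in PBS animals. The median log2 fold change of the 8 genes was 0.27 in Agrin and 1.90 in PBS animals at day 28, and 4.77 in Agrin and 4.82 in PBS animals at day 3, while the median over all genes lay between 0 and 0.06 in these 4 comparisons. In the day 28 Agrin comparison, edgeR called 0 of all genes (599 at an unadjusted p under 0.05) and DESeq2 also called 0. The day 28 PBS calls rested on few animals: TREM2 and CD68 were the calls left without animal 523, TREM2, CD68 and APOE those left without animal 536 or without the pairing of zones by animal, and 0 of 8 were called when this group was fitted on its own (adjusted p = 0.0641 for TREM2, CD68 and APOE). GPNMB ranged most, from 1.76 (without 523) to 4.64 (without 547). In the same PBS comparison 4 of 6 fibroblast genes were called higher (COL1A1, COL3A1, POSTN and ACTA2, median of the 6 genes 1.59) and 2 of 6 cardiomyocyte genes lower (TNNI3 and ATP2A2, median -1.01), while 0 of these 12 genes were called in Agrin animals, and the part of these cells in the 5 calls was not tested. In the Agrin comparison, TREM2 and TYROBP were the 2 of the 8 genes with an unadjusted p under 0.05.

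**Figure D1:**
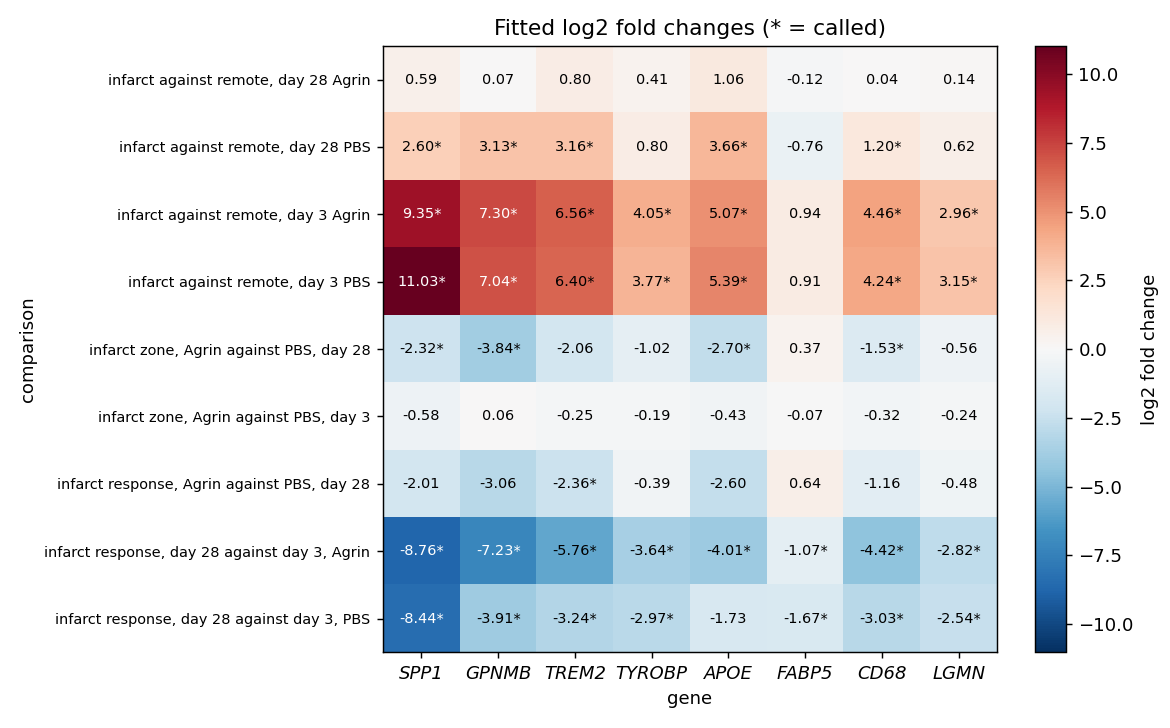
Fitted log2 fold changes of the 8 genes (columns) in 9 comparisons (rows), colored from blue (lower) to red (higher), with an asterisk where a gene was called. At day 3 the infarct zone exceeded the remote zone by 2.96 to 11.03 on the log2 scale for 7 genes, and at day 28 asterisks between zones appear only in the PBS row.

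The split of calls over all genes depended on the scaling. With TMM, 55.4% of the genes called between zones at day 3 were higher in the infarct in Agrin animals and 52.5% in PBS animals, and with library totals alone the shares were 81.6% in Agrin and 78.0% in PBS animals, where the median of all genes was 0.76 in Agrin and 0.69 in PBS animals. Under that scaling FABP5 was called higher too, at 1.65 in Agrin and 1.56 in PBS animals at day 3. The 7 other genes rose at day 3 under every scaling tried.

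TREM2, the lipid receptor, was close to the limit of detection in remote myocardium and was abundant only in the day 3 infarct. At day 28, Agrin animals 519, 522, 544 and 548 had 0.161, 0.869, 1.76 and 4.45 CPM in the infarct and 0.504, 0.291, 1.36 and 1.7 CPM in the remote zone, and the zones overlapped. PBS animals 523, 536 and 547 had 15.3, 3.56 and 4.84 CPM in the infarct against 1.61, 0.703 and 0.271 CPM in the remote zone, without overlap. In these PBS animals the infarcts lay wholly above the remote zones for 10.8% of all genes tested, among them TREM2, SPP1, APOE and LGMN. The highest day 28 level was the infarct of animal 523. At day 3, Agrin animals 570, 572, 576 and 577 had 66.9, 55.7, 49.9 and 51.6 CPM in the infarct against 0.745, 0.75, 0.515 and 0.369 CPM in the remote zone. PBS animals 571, 573 and 575 had 84.4, 47 and 65.8 CPM in the infarct against 1.13, 0.545 and 0.669 CPM in the remote zone. Every day 3 infarct library lay far above every remote library. The remote values rest on 6 to 44 counts per library. The log2 fold change between zones was 0.80 ± 0.32 in Agrin (adjusted p = 1) and 3.16 ± 0.33 in PBS animals (adjusted p = 0.000136) at day 28. At day 3 it was 6.56 ± 0.30 in Agrin (adjusted p = 5.27e-10) and 6.40 ± 0.34 in PBS animals (adjusted p = 4.19e-09).

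TYROBP, the adaptor through which TREM2 and related receptors signal, rose at day 3 and differed little between zones at day 28. The day 28 Agrin animals had 5.73, 10.3, 14.3 and 14.6 CPM in the infarct and 5.8, 8.48, 9.04 and 9.31 CPM in the remote zone. In the day 28 PBS animals the levels were 39.7, 14.5 and 15.7 CPM in the infarct and 21.1, 8.7 and 9.43 CPM in the remote zone. The remote zone of animal 523 exceeded the infarct of the other 2 PBS animals, so the groups overlapped although each animal had more in its infarct. Day 3 infarcts of Agrin animals reached 125, 108, 106 and 96.9 CPM against 7.71, 8.1, 7.33 and 3.92 CPM in the remote zone. Those of PBS animals reached 132, 113 and 124 CPM against 7.7, 9.57 and 9.81 CPM. The 7 infarct levels of day 3 lay close together, from 96.9 to 132 CPM. The zones differed by 4.05 ± 0.16 in Agrin (adjusted p = 1.26e-10) and 3.77 ± 0.18 in PBS animals (adjusted p = 1.48e-09) at day 3. The day 28 difference of 0.80 ± 0.16 in PBS animals passed the adjusted p (adjusted p = 0.00444) but not the fold threshold, and with library totals alone it was called at 1.13.

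APOE, the lipid carrier, had the largest fold of the 8 genes between zones at day 28 in PBS animals. Its levels in day 28 Agrin animals were 6.1, 19.7, 13.1 and 43.7 CPM in the infarct and 6.26, 4.7, 7.26 and 18.1 CPM in the remote zone. The day 28 PBS animals had 258, 82.1 and 71.6 CPM in the infarct against 14.2, 5.09 and 10.4 CPM in the remote zone. All 3 PBS infarcts lay above all 7 remote libraries of that day, while the Agrin zones overlapped. On day 3, APOE stood at 626, 548, 307 and 168 CPM in Agrin infarcts against 20.4, 9.4, 4.98 and 14 CPM in remote zones. It stood at 832, 402 and 399 CPM in PBS infarcts against 7.64, 54.9 and 4.82 CPM in remote zones. The remote library of animal 573 was the highest of all 14 remote libraries. The log2 fold change was 1.06 ± 0.57 in Agrin (adjusted p = 1) and 3.66 ± 0.69 in PBS animals (adjusted p = 0.0032) at day 28. It was 5.07 ± 0.64 in Agrin (adjusted p = 8.42e-06) and 5.39 ± 0.79 in PBS animals (adjusted p = 4.16e-05) at day 3. Without animal 573 the day 3 PBS value was 6.57 (adjusted p = 2.4e-06).

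SPP1, which encodes the secreted integrin ligand osteopontin, had the largest change of the 8 genes at day 3. The day 28 Agrin animals had 5.14, 23.7, 3.92 and 17.2 CPM in the infarct and 5.21, 3.57, 5.25 and 15 CPM in the remote zone. The day 28 PBS animals had 94.6, 33.9 and 62.4 CPM in the infarct and 7.93, 3.69 and 31.2 CPM in the remote zone. PBS infarcts lay just above the highest PBS remote zone, that of animal 547, and the Agrin zones overlapped. In day 3 Agrin animals the infarct had 4478, 8095, 15041 and 8871 CPM against 17.3, 14.2, 4.3 and 18.6 CPM in the remote zone. In day 3 PBS animals it had 9114, 11298 and 20126 CPM against 8.49, 6.69 and 3.75 CPM. SPP1 alone took 0.568% (animal 570, exact Clopper-Pearson 95% interval 0.5652 to 0.5717) to 2.73% (animal 575, 2.726 to 2.741) of all counts of a day 3 infarct library, intervals that cover counting error only. The fitted difference between zones was 9.35 ± 0.86 in Agrin (adjusted p = 3.56e-07) and 11.03 ± 1.05 in PBS animals (adjusted p = 7.58e-07) at day 3. At day 28 it was 0.59 ± 0.66 in Agrin (adjusted p = 1) and 2.60 ± 0.77 in PBS animals (adjusted p = 0.0262).

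GPNMB, a transmembrane glycoprotein of lysosomes and melanosomes, rose at day 3 in both treatments and at day 28 in PBS animals. Levels at day 28 were 2.19, 6.61, 6.66 and 6.43 CPM in Agrin infarcts and 9.88, 2.84, 4.5 and 5.07 CPM in Agrin remote zones. They were 152, 47 and 42.5 CPM in PBS infarcts and 4.35, 2.72 and 49.3 CPM in PBS remote zones. Animal 547 had as much GPNMB in its remote zone as in its infarct, and its remote SPP1 was also the highest of the remote libraries. At day 3 the levels were 299.8, 286, 433 and 502 CPM in Agrin infarcts against 3.4, 2.65, 1.37 and 2.07 CPM in remote zones. PBS infarcts of day 3 had 486, 243 and 350.0 CPM against 3.74, 2.18 and 2.28 CPM in remote zones. Each day 3 infarct was above the remote zone of the same animal as labelled, by 88.1-fold to 315-fold. The log2 fold change was 0.07 ± 0.72 in Agrin (adjusted p = 1) and 3.13 ± 0.96 in PBS animals (adjusted p = 0.0304) at day 28, and 7.30 ± 0.84 in Agrin (adjusted p = 3.95e-06) and 7.04 ± 0.96 in PBS animals (adjusted p = 2.33e-05) at day 3.

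CD68, a lysosomal glycoprotein widely used as a macrophage marker, and LGMN, the lysosomal asparaginyl endopeptidase legumain, rose in every animal at day 3. CD68 at day 28 had 8.78, 7.08, 12.2 and 18 CPM in Agrin infarcts and 8.66, 9.39, 12.2 and 12.5 CPM in Agrin remote zones. It had 57.2, 24.3 and 20.2 CPM in PBS infarcts and 20.6, 12 and 9.39 CPM in PBS remote zones, where the remote zone of animal 523 exceeded the lowest infarct. Each PBS animal had more CD68 in its infarct, by 2.02-fold to 2.77-fold, and 2 of 4 Agrin animals did. At day 3 CD68 had 118, 151, 120.3 and 108 CPM in Agrin infarcts against 5.74, 7.6, 7.16 and 2.95 CPM in remote zones. Day 3 PBS infarcts had 202, 134 and 121 CPM of CD68 against 10, 8.4 and 5.89 CPM. The zones differed by 0.04 ± 0.16 in Agrin (adjusted p = 1) and 1.20 ± 0.19 in PBS animals (adjusted p = 0.00108) at day 28, and by 4.46 ± 0.18 in Agrin (adjusted p = 2.1e-10) and 4.24 ± 0.21 in PBS animals (adjusted p = 2.06e-09) at day 3.

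LGMN differed from the genes above in that its remote level was steady across animals. At day 28 it had 77.5, 105, 102 and 112 CPM in Agrin infarcts and 94.6, 92.5, 82.1 and 87.7 CPM in Agrin remote zones. PBS infarcts had 171, 129.7 and 143 CPM against 105, 92.1 and 90.8 CPM in PBS remote zones, with no overlap. The same held, with the infarct higher, for 10.8% of all genes tested in these animals. The PBS difference of 0.62 ± 0.14 passed the adjusted p (0.00757) but not the fold threshold, and the Agrin difference was 0.14 ± 0.12 (adjusted p = 1). At day 3 LGMN had 757, 677, 660.2 and 763 CPM in Agrin infarcts against 101, 99.1, 79 and 89.3 CPM in remote zones. PBS infarcts had 1179.7, 612 and 703 CPM against 112, 84.9 and 76.2 CPM. Its remote levels lay within 76.2 to 112 CPM in all 14 animals. The day 3 difference was 2.96 ± 0.13 in Agrin (adjusted p = 3.75e-10) and 3.15 ± 0.15 in PBS animals (adjusted p = 1.82e-09).

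FABP5, which carries fatty acids in macrophages, endothelium and other cells, stood apart from the other 7 genes. At day 28 it had 129, 105, 129.7 and 104 CPM in Agrin infarcts and 116, 135, 131 and 126 CPM in Agrin remote zones. In PBS animals it had 77.3, 83.4 and 112 CPM in infarcts and 253, 111 and 127 CPM in remote zones. All 3 PBS animals had less FABP5 in the infarct than in the remote zone, and the remote zone of animal 523 was the highest of all remote libraries. At day 3 the levels were 195, 151, 265 and 257 CPM in Agrin infarcts against 114, 109, 115 and 102 CPM in remote zones. PBS infarcts had 225, 179 and 272 CPM against 113, 137 and 108 CPM. The day 3 zones did not overlap, as was the case with the infarct higher for 31.6% of all genes tested in Agrin and 33.9% in PBS animals, but the differences of 0.94 ± 0.22 in Agrin (adjusted p = 0.00175) and 0.91 ± 0.26 in PBS animals (adjusted p = 0.00672) passed the adjusted p and fell short of the fold threshold. Without animal 573 the PBS value was 1.16 (adjusted p = 0.0043) and was called. In Agrin animals FABP5 was called at day 3 without 570 (1.0, adjusted p = 0.00499) or without 572 (1.1, adjusted p = 0.00172). The day 28 value was -0.12 ± 0.22 in Agrin (adjusted p = 1) and -0.76 ± 0.26 in PBS animals (adjusted p = 0.0481), and neither reached the fold threshold, although without animal 547 FABP5 was called lower in PBS animals at -1.06 (adjusted p = 0.0247). Counting kept uniquely aligned reads, so reads shared with any near-identical copy of a gene would not be counted. Whether FABP5 has such a copy was not tested.

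**Figure D2:**
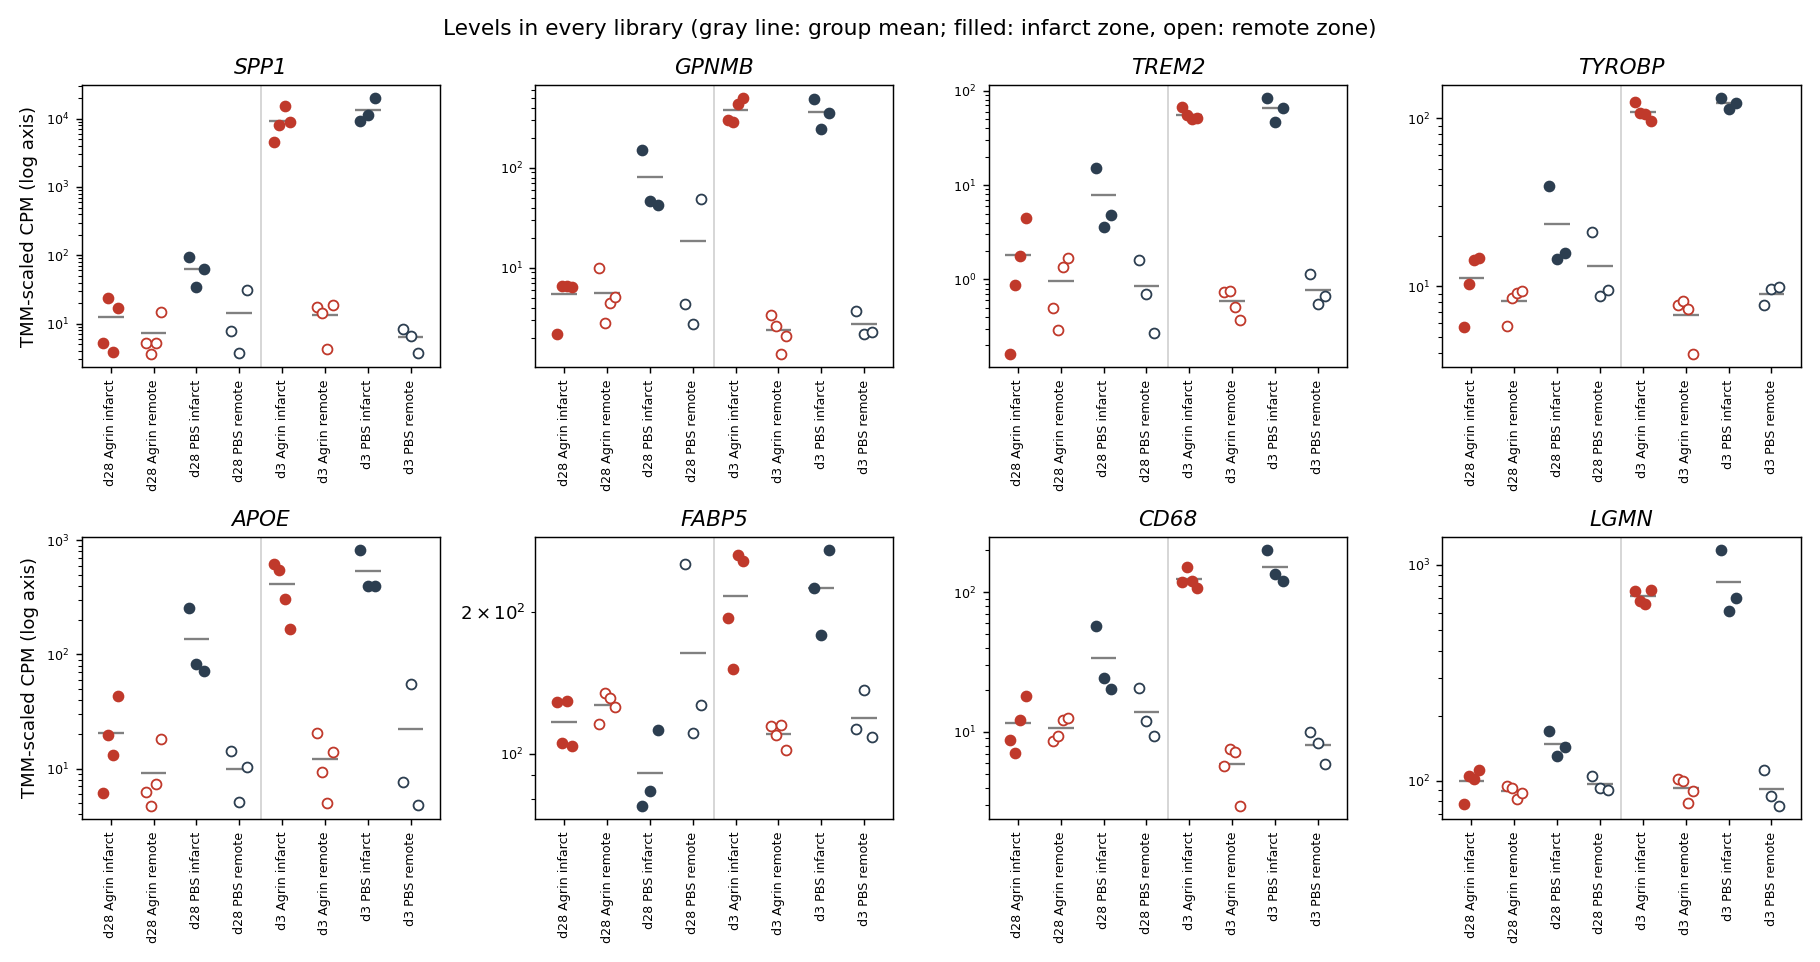
Level of each gene in TMM-scaled CPM on a log axis, 1 point per library, in 8 groups with day 28 left of day 3. Agrin is red and PBS dark blue, infarct points are filled and remote points open, and a gray line marks the group mean. Filled points at day 3 lie above all open points of that day for all 8 genes, and at day 28 the PBS infarct points lie above the Agrin infarct points for SPP1, GPNMB, CD68, APOE and LGMN.

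**Figure D3:**
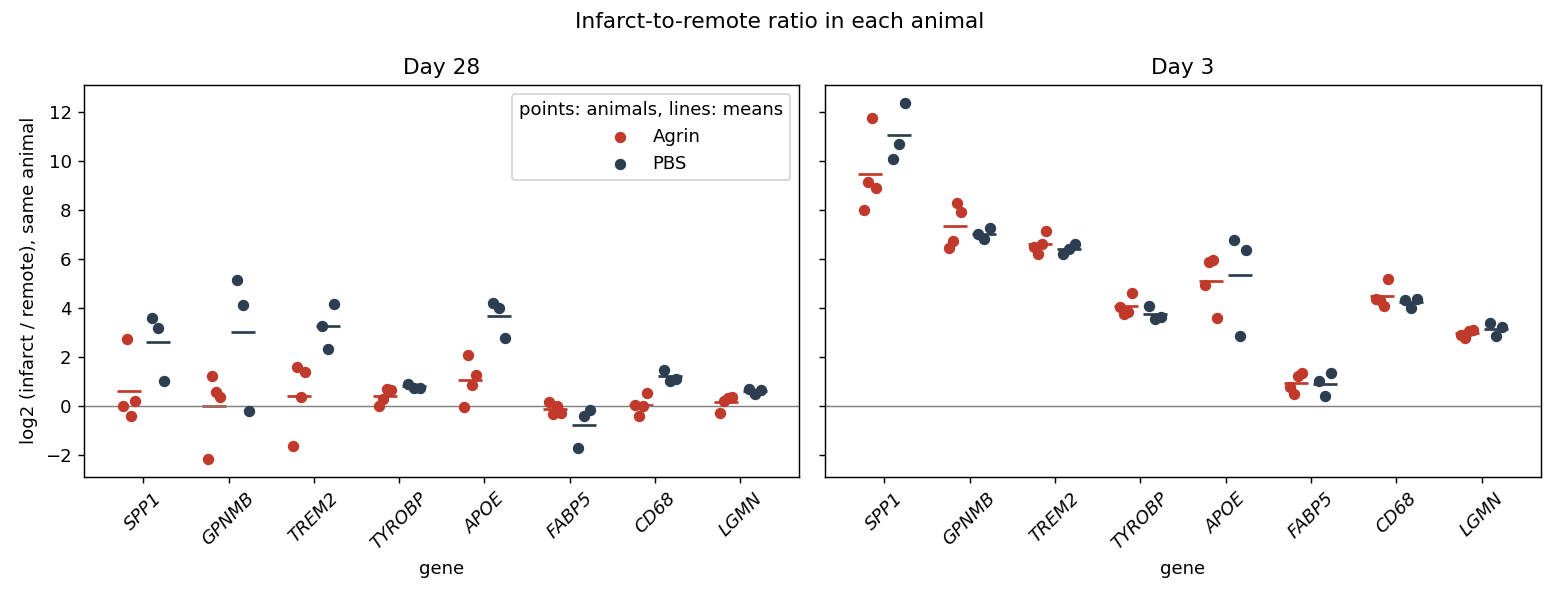
Log2 ratio of infarct to remote zone within each animal as labelled, 1 point per animal and 1 line per group mean, for the 8 genes at day 28 (left) and day 3 (right), Agrin left of PBS within each gene. All points are above 0 at day 3, and at day 28 the Agrin points lie on both sides of 0 for each gene, while the PBS points are all above 0 for SPP1, TREM2, TYROBP, APOE, CD68 and LGMN.

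Within animals, all 8 genes were higher in the infarct in each of the 7 day 3 animals. At day 28 the count was 2, 6, 5 and 7 of 8 genes in Agrin animals 519, 522, 544 and 548, and 7, 7 and 6 of 8 in PBS animals 523, 536 and 547. No share over all genes was set beside these counts by animal, so they are a description only. The median log2 ratio over the 8 genes was -0.03, 0.76, 0.34 and 0.44 in these Agrin animals and 2.36, 1.68 and 0.86 in these PBS animals. The day 3 animals had medians of 3.78 to 5.37, where 3.78 was that of animal 573 and the others had 4.65 to 5.37. Among day 28 infarcts, animal 519 had the lowest summed level of pan-macrophage genes (195 CPM), with TREM2 at 3 counts and GPNMB below its own remote zone, and animal 523 had the highest (599 CPM).

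Agrin and PBS infarcts were then compared directly at day 28, which asks whether these genes differ by treatment once the acute phase has passed. Of the 8 genes, 4 fell in Agrin infarcts: GPNMB (-3.84 ± 0.49, adjusted p = 0.0043), APOE (-2.7 ± 0.66, adjusted p = 0.031), SPP1 (-2.32 ± 0.62, adjusted p = 0.0429) and CD68 (-1.53 ± 0.36, adjusted p = 0.0285). The values for TREM2 (-2.06 ± 0.66, adjusted p = 0.0696), TYROBP (-1.02 ± 0.34, adjusted p = 0.0798), LGMN (-0.56 ± 0.23, adjusted p = 0.128) and FABP5 (0.37 ± 0.22, adjusted p = 0.272) did not pass. Mean levels were 5.47 ± 2.19 CPM in Agrin and 80.4 ± 61.8 CPM in PBS infarcts for GPNMB, and 20.6 ± 16.3 CPM in Agrin and 137 ± 105 CPM in PBS infarcts for APOE (n = 4 and n = 3). SPP1 averaged 12.5 ± 9.59 CPM in Agrin and 63.6 ± 30.4 CPM in PBS infarcts, and CD68 averaged 11.5 ± 4.80 CPM in Agrin and 33.9 ± 20.2 CPM in PBS infarcts. For 5 genes, the 4 that fell and LGMN, all Agrin infarcts lay below all PBS infarcts, as they did for 12.7% of all genes tested. The background was 4.04% of 14968 genes called lower in Agrin, and the median over all genes was -0.01, against -1.80 over the 8 genes. Leaving out 1 animal moved the count of called genes between 1 and 6: only GPNMB was called without 519, without 523 or without 544, GPNMB and SPP1 without 522, TREM2 and TYROBP joined the 4 without 536, TYROBP replaced SPP1 without 547, and TREM2 replaced it without 548. Without 523 the values were -3.00 for GPNMB, -1.88 for APOE and -0.94 for CD68, and APOE was -3.37 without 548. DESeq2 called 6 of the 8 genes, adding TREM2 (-2.12, adjusted p = 0.0193) and TYROBP (-1.04, adjusted p = 0.0333).

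Markers of other cells moved with these levels at day 28. The summed level of the 6 cardiomyocyte genes was 54533, 54116, 53686 and 45888 CPM in the infarcts of Agrin animals 519, 522, 544 and 548, against 52751 to 56361 CPM in their remote zones. The infarct of 548 lay below that range and those of the other Agrin animals within it. The sum was 7694, 39189 and 33681 CPM in the infarcts of PBS animals 523, 536 and 547, against 30628, 51812 and 47020.0 CPM in their remote zones. Each PBS infarct was below the remote zone of the same animal, and those of 536 and 547 lay within the range of the PBS remote zones. The 6 fibroblast genes summed to 5975 to 15301 CPM in Agrin infarcts and to 11941 to 49774 CPM in PBS infarcts, and the 8 measured pan-macrophage genes to 195 to 314 CPM in Agrin infarcts and 369.8 to 599 CPM in PBS infarcts. Animal 523 had the least cardiomyocyte and the most fibroblast and macrophage signal, and its infarct library also had the lowest mitochondrial share of day 28, 6.825%. The part of this tissue composition in the difference between treatments was not tested.

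**Figure D4:**
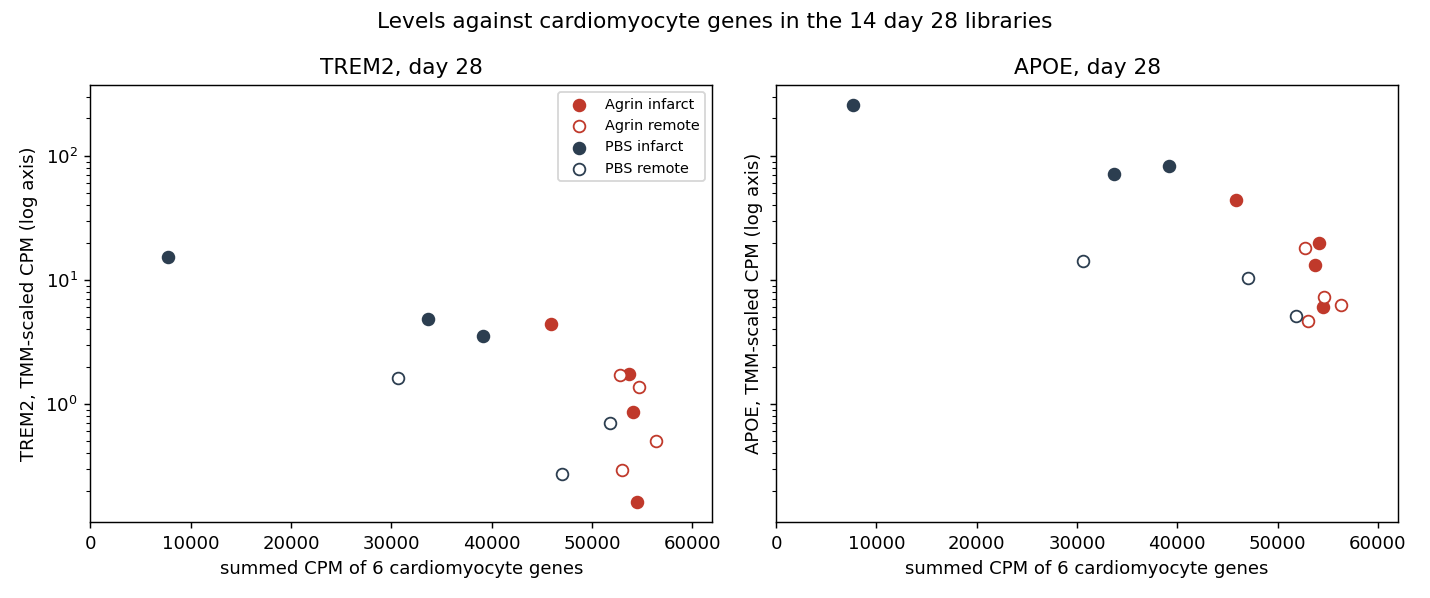
Level of TREM2 (left) and APOE (right) in TMM-scaled CPM on a log axis against the summed CPM of 6 cardiomyocyte genes, in the 14 day 28 libraries. Agrin is red and PBS dark blue, with filled infarct and open remote points. The 3 PBS infarcts lie at 7694 to 39189 CPM of cardiomyocyte genes, left of the 4 Agrin infarcts at 45888 to 54533 CPM.

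The infarct response, the difference between zones of the same animal, was also compared between treatments, using the same libraries. At day 28, TREM2 was the 1 of 8 genes called, with a response lower in Agrin animals by 2.36 on the log2 scale (SE 0.47, adjusted p = 0.04), where 0.487% of genes were called lower. CD68 (-1.16 ± 0.25, adjusted p = 0.0502), APOE (-2.60 ± 0.86, adjusted p = 0.114), GPNMB (-3.06 ± 1.19, adjusted p = 0.161) and SPP1 (-2.01 ± 1.00, adjusted p = 0.261) did not pass. The response of TYROBP differed by -0.39 ± 0.22, of LGMN by -0.48 ± 0.19 and of FABP5 by 0.64 ± 0.34, and none of these passed. The TREM2 call was lost when any 1 of animals 519, 522, 523, 536, 544 or 548 was left out (-2.10 to -2.75, adjusted p = 0.0525 to 0.222) and without the pairing of zones by animal (-2.19, adjusted p = 0.433). Without animal 547, GPNMB (-4.57, adjusted p = 0.0158) and CD68 (-1.20, adjusted p = 0.0434) were called beside TREM2, and with library totals alone CD68 was called at -1.42 (adjusted p = 0.0127). DESeq2 called 4 of the 8 genes, TREM2, CD68, APOE and GPNMB.

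At day 3 no difference between Agrin and PBS was detected for any of the 8 genes. In the infarct zone 0 of 8 were called (0% of 14968 genes in either direction), with log2 fold changes of -0.58 to 0.06 and 0 of 8 at an unadjusted p under 0.05. Over all genes, 170 had an unadjusted p under 0.05, and DESeq2 called 0. The highest of the 8 values, that of GPNMB, was 0.06 with and -0.16 without animal 573. The infarct response gave 0 of 8 as well (0% of 15409 genes in either direction, 684 at an unadjusted p under 0.05, 2 called by DESeq2), with values of -1.68 for SPP1 to 0.28 for TYROBP. The SE of these differences reached 1.10 for GPNMB and 0.99 for SPP1, and the -1.68 of SPP1 did not pass.

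Between day 28 and day 3, all 8 genes were lower in the day 28 infarct zone, with no overlap between days in Agrin or in PBS animals, as were 32.0% of all genes tested in Agrin and 27.3% in PBS animals. In the infarct zone alone, 7 of 8 genes were called lower in Agrin animals (background 16.3% of genes) and 8 of 8 in PBS animals (10.4%). SPP1 changed by -9.40 in Agrin and by -7.66 in PBS animals on the log2 scale, and GPNMB by -6.01 in Agrin and by -2.11 in PBS animals. TREM2 changed by -4.82 in Agrin and by -3.00 in PBS animals, and APOE by -4.21 in Agrin and by -1.94 in PBS animals. The smallest values were those of FABP5, -0.80 in Agrin (adjusted p = 0.00419, below the fold threshold) and -1.24 in PBS animals (adjusted p = 0.00127). The APOE call in PBS animals was lost without 536, 547 or 571 (-1.68, -1.63 and -1.54, adjusted p = 0.118 to 0.121), and 8 of 8 were called without 573. Without 523, whose infarct was the highest of that day for TREM2, the PBS values were -3.94 for TREM2, -2.98 for GPNMB, -2.75 for CD68, -2.80 for APOE and -3.00 for TYROBP, and without 548 the Agrin values were -5.76 for TREM2 and -4.88 for APOE. As a response against the remote zone of the same animals, 8 of 8 genes fell in Agrin (background 17.6% called lower) and 7 of 8 in PBS animals (11.7%). APOE was the exception in PBS animals, at -1.73 ± 0.97 (adjusted p = 0.164), and without animal 573 it was called at -2.91 (adjusted p = 0.00544). GPNMB in PBS animals lost its call without 571 (-3.93, adjusted p = 0.0564) or 575 (-3.79, adjusted p = 0.0578) and ranged from -5.28 (without 523) to -2.40 (without 547), and FABP5 in Agrin animals fell short of the fold threshold without 522, 576 or 577 (-0.99, -0.98 and -0.94). The largest falls of the response were those of SPP1 (-8.76 in Agrin and -8.44 in PBS animals). The median over the 8 genes was -4.22 in Agrin and -3.00 in PBS animals, against medians over all genes of -0.07 and 0.01.

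Remote myocardium showed no call for any of the 8 genes. Agrin against PBS gave 0 of 8 at day 28 (0% of 14324 genes called in either direction, 656 at an unadjusted p under 0.05, 5 called by DESeq2) and 0 of 8 at day 3 (0%, 554 and 1). Day 28 against day 3 gave 0 of 8 in Agrin animals (0%, 1294 and 25) and 0 of 8 in PBS animals (0%, 1465 and 38). DESeq2 called 0 of the 8 genes in all 4 comparisons. Genes among the 8 with an unadjusted p under 0.05 were GPNMB (-1.75 ± 0.75) and TYROBP (-0.69 ± 0.31) in Agrin against PBS at day 28, CD68 (0.85 ± 0.30) in day 28 against day 3 in Agrin animals, and GPNMB (2.77 ± 0.88) and CD68 (0.80 ± 0.34) in the same comparison in PBS animals. The adjusted p of these 5 values was 0.367 to 0.967. Among the PBS remote zones of day 28, animal 547 stood apart in GPNMB, with 49.3 CPM beside 4.35 and 2.72 CPM in the others. Without this animal, GPNMB was 0.65 in Agrin against PBS at day 28, and 0.37 in day 28 against day 3 in PBS animals. APOE, not called either way, turned its sign without animal 573: it was 0.99 without and -0.85 ± 0.73 with this animal in Agrin against PBS at day 3, and 0.67 without and -1.16 ± 0.80 with it in day 28 against day 3 in PBS animals. Small values of FABP5 (-0.10 with, 0.01 without) and LGMN (0.03 with, -0.02 without) turned too in the first of these comparisons. In the second, TREM2 was 0.15 with and -0.04 without animal 573.

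Leaving out animal 573, whose zones did not match, left the calls of the 8 genes between zones in place. In day 3 PBS animals the difference between zones was then 11.2 for SPP1, 7.14 for GPNMB, 6.40 for TREM2, 6.57 for APOE, 4.35 for CD68, 3.87 for TYROBP, 3.30 for LGMN and 1.16 for FABP5, and 8 of 8 were called. Over all genes 5534 were called without this animal, against 5345 with it. The counts of the gene lists between zones at day 3 in PBS animals, described next, were the same without this animal, other than ligands and clearance receptors (2 higher and 3 lower), cholesterol sensing and efflux (7 higher and 1 lower) and adipocyte genes (1 higher).

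Genes that act with TREM2 and TYROBP were higher in the infarct at day 3. Of 10 genes of TREM2-TYROBP signalling tested, 10 were called higher in the infarct at day 3 in Agrin and 10 in PBS animals, with medians of 3.15 in Agrin and 2.89 in PBS animals. Over all genes, 19.3% in Agrin and 18.2% in PBS animals were called higher. SYK, the kinase that docks on phosphorylated TYROBP, had 4.27 ± 0.20 in Agrin and 4.27 ± 0.24 in PBS animals, and VAV1, an exchange factor downstream of it, had 5.10 ± 0.19 in Agrin and 4.61 ± 0.21 in PBS animals. SPI1, which encodes the macrophage transcription factor PU.1, rose by 2.64 in Agrin and by 2.61 in PBS animals. At day 28, 0 of 10 were called between zones in either treatment, with medians of 0.13 in Agrin and 0.62 in PBS animals, and 1 of 10, VAV1, was lower in Agrin than in PBS infarcts (-1.03, adjusted p = 0.0452), where 4.04% of all genes were called lower. HCST, a related adaptor on the same list, was not analysed here.

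Ligands and clearance receptors of lipoproteins and dying cells were mixed. Of 10 tested, 3 were called higher and 2 lower in Agrin animals at day 3, and 2 higher and 2 lower in PBS animals, with medians of -0.08 in Agrin and -0.04 in PBS animals. Over all genes, 19.3% were called higher and 15.5% lower in Agrin animals and 18.2% higher and 16.5% lower in PBS animals, so these counts were near the background. MSR1, a scavenger receptor of macrophages, rose by 6.04 in Agrin and 5.58 in PBS animals, and MERTK, a receptor for apoptotic cells, rose by 3.42 in Agrin and 3.08 in PBS animals. LPL, which releases fatty acids from lipoproteins, fell (-3.01 in Agrin and -3.45 in PBS animals), as did CD36, a fatty acid transporter that muscle and endothelium also make (-2.27 in Agrin and -2.25 in PBS animals). LPL and CD36 were also lower in the day 28 PBS infarct (-1.34 and -1.06). Among 7 receptors of osteopontin, CD44, ITGB3 and ITGA4 rose in both treatments at day 3, by 1.99, 3.11 and 3.34 in Agrin and by 2.23, 3.32 and 3.42 in PBS animals, and the other 4 were not called. At day 28 none of these 7 was called between zones in Agrin or in PBS animals.

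Most genes of cholesterol handling and of lysosomes rose at day 3, where 19.3% of all genes in Agrin and 18.2% in PBS animals were called higher. Of 11 genes of cholesterol sensing and efflux, 8 were called higher in Agrin animals, and 8 higher and 1 lower in PBS animals, with medians of 1.59 in Agrin and 1.36 in PBS animals. SOAT1, which esterifies cholesterol for storage, had 4.10 ± 0.15 in Agrin and 4.22 ± 0.17 in PBS animals, LIPA, the lysosomal acid lipase, had 3.40 ± 0.14 in Agrin and 3.42 ± 0.16 in PBS animals, and NR1H3, the liver X receptor alpha that induces APOE in macrophages, had 2.56 ± 0.24 in Agrin and 2.80 ± 0.28 in PBS animals. Of 17 genes of lysosomal breakdown, 16 rose in Agrin and 15 in PBS animals, with medians of 2.05 in Agrin and 2.39 in PBS animals, among them the proton pump subunit ATP6V0D2 and the cathepsins CTSL (6.43 in Agrin and 6.16 in PBS animals) and CTSS (3.94 in Agrin and 3.67 in PBS animals). ATP6V0D2 had 387 to 1874 counts per Agrin infarct and 1483 to 2506 per PBS infarct, against 1 count over all 4 Agrin and 1 over all 3 PBS remote libraries. At day 28, ATP6V0D2 was the 1 of these 17 genes called between zones in PBS animals, near the 5.58% of all genes called higher, and 0 were called in Agrin animals (0% of all genes). It had 5 to 65 counts per PBS infarct and 0 counts in the 3 PBS remote libraries, at least 21.3-fold higher against a floor of 3 counts over the remote group. Of the 4 lysosome transcription factors, TFEC rose at day 3 (4.14 in Agrin and 3.67 in PBS animals), MITF fell (-1.55 in Agrin and -1.72 in PBS animals), and TFEB and TFE3 were not called, counts near the shares of all genes given above. Of 7 genes of fatty acid binding and lipid droplets, the galectin LGALS3 (6.41 in Agrin and 6.46 in PBS animals) and the droplet coat protein PLIN2 (2.53 in Agrin and 2.7 in PBS animals) rose, and FABP3, the heart-type relative of FABP5, fell (-2.87 in Agrin and -3.36 in PBS animals). NUPR1 on the same list rose in Agrin animals (1.34) and was 0.34 in PBS animals, where it was not called. At day 28 in PBS animals LGALS3 (1.98) and NUPR1 (1.3) rose and FABP3 fell (-1.40).

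**Figure D5:**
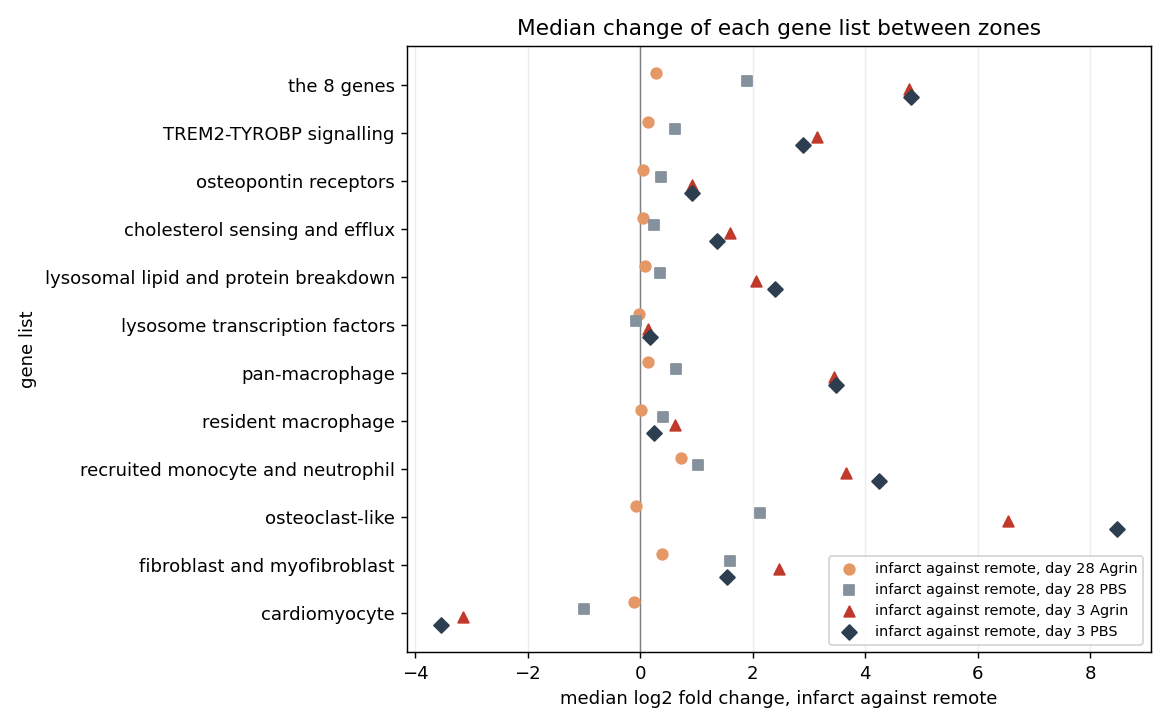
Median log2 fold change between infarct and remote zone of 12 gene lists (rows), for day 28 Agrin (orange circles), day 28 PBS (gray squares), day 3 Agrin (red triangles) and day 3 PBS (dark blue diamonds). The 8 genes lie at 4.77 and 4.82 at day 3, the pan-macrophage list at 3.45 and 3.48, and the resident macrophage list at 0.62 and 0.25. The PBS medians of the osteoclast-like list include fits against 0 remote counts.

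All 8 measured pan-macrophage genes were called higher at day 3 in both treatments (medians 3.45 in Agrin and 3.48 in PBS animals). Of 9 resident macrophage genes, 4 were called higher in Agrin and 2 in PBS animals (medians 0.62 in Agrin and 0.25 in PBS animals), where 19.3% of all genes in Agrin and 18.2% in PBS animals were called higher, so that 2 of 9 was near the background. The complement genes C1QA, C1QB and C1QC were not called, with 0.30, 0.62 and 0.46 in Agrin and -0.09, 0.25 and 0.09 in PBS animals. They do not stand for the whole list. Over the 28 libraries, Pearson r to the mean standardized level of the 8 genes was 0.85 for MAF, 0.80 for CD163 and 0.64 for TIMD4. It was 0.31 for MRC1, -0.11 to 0.10 for LYVE1 and the C1Q genes, and -0.37 for FOLR2. All 5 measured genes of recruited monocytes and neutrophils were called higher (medians 3.65 in Agrin and 4.25 in PBS animals), among them CCR2 (3.45 in Agrin and 3.22 in PBS animals). Of 6 osteoclast-like genes, a program that shares SPP1 and GPNMB with these cells, 5 were called higher (medians 6.53 in Agrin and 8.47 in PBS animals), among them SIGLEC15, DCSTAMP and ACP5. In the day 3 PBS remote libraries DCSTAMP and OCSTAMP had 0 counts, so the fitted folds of these 2 genes are no measure of size, and with both at a bound set by 3 counts over the remote group the PBS median was 5.77. At day 28 in PBS animals the medians were 0.63 for pan-macrophage, 0.40 for resident macrophage, 1.02 for recruited monocyte and neutrophil and 2.12 for osteoclast-like genes (1.76 with DCSTAMP, at 0 counts in the remote zone, at its bound), with 1 of 8, 0 of 9, 1 of 5 and 2 of 6 called higher, and in Agrin animals 0 genes of these 4 lists were called. Over all genes, 5.58% were called higher in PBS animals and 0% in either direction in Agrin animals. Single calls in lists this short are therefore not read as a result. All 6 cardiomyocyte genes fell at day 3 in both treatments, 5 of 6 fibroblast genes rose in both treatments, and of 5 endothelial genes none rose and 1 (VWF, in PBS animals) fell. Of 4 Schwann cell genes 1 fell (SOX10, in PBS animals), and of 3 adipocyte genes tested 1 rose (ADIPOQ, in Agrin animals). The counts of these last 3 lists were near the shares of all genes called higher (19.3% in Agrin and 18.2% in PBS animals) or lower (15.5% in Agrin and 16.5% in PBS animals).

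Set against the mean log2 level of the 8 pan-macrophage genes in the same library, the 8 genes divided. With 0.5 CPM added, SPP1 stood 5.50 to 7.49 above that mean in day 3 Agrin infarcts, against -1.25 to 1.45 in their remote zones, and 6.03 to 7.60 in PBS infarcts, against -1.80 to -0.38. GPNMB had 1.44 to 2.59 in Agrin infarcts against -2.61 to -1.19 in remote zones, and 1.43 to 1.80 in PBS infarcts against -2.42 to -1.46. On this scale the infarcts lay wholly above the remote zones for 5 genes in Agrin animals (SPP1, GPNMB, TREM2, CD68 and TYROBP) and for the first 4 of these in PBS animals, as they did for 0.493% of all genes tested in Agrin and 0.811% in PBS animals. TYROBP overlapped in PBS animals (-0.07 to 0.33 in infarcts against -0.52 to -0.01 in remote zones). APOE overlapped in both, with 1.02 to 2.66 in Agrin infarcts against -1.06 to 1.22 in remote zones and 1.95 to 2.57 in PBS infarcts against -1.48 to 2.45. For both TYROBP and APOE the highest PBS remote value was that of animal 573, whose zones did not match. Without this animal the PBS infarcts lay wholly above the PBS remote zones for both genes. The share of all genes without it was not computed. LGMN overlapped too, with 2.68 to 3.20 in Agrin infarcts against 2.80 to 3.68 in remote zones and 2.76 to 3.08 in PBS infarcts against 2.37 to 3.27. FABP5 was lower in the infarct relative to macrophage genes, with 0.52 to 1.67 in Agrin infarcts against 3.26 to 3.87 in remote zones and 0.69 to 1.40 in PBS infarcts against 2.88 to 3.76, as were 94.9% of all genes tested in Agrin and 95.6% in PBS animals without overlap. At day 28 the PBS infarcts had 1.55 to 2.76 for APOE and -2.45 to -1.27 for TREM2, against -1.43 to -0.57 and -4.39 to -3.63 in their remote zones, without overlap. CD68 was just above its remote zones there (-0.25 to 0.60 against -0.71 to -0.26) and FABP5 was below them (1.03 to 2.19 against 2.89 to 3.28), where 2.78% of all genes lay wholly above and 15.7% wholly below. The PBS zones overlapped for SPP1 (0.63 to 1.35 against -1.84 to 0.97), GPNMB (0.80 to 2.0 against -2.43 to 1.62), LGMN and TYROBP, and the Agrin zones overlapped for all 8 genes. The added 0.5 CPM understates the change of TREM2.

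Across the 28 libraries the 8 genes rose and fell together, with a median Pearson r of 0.92 over their 28 pairs of log2 levels, which mostly restates the gap between zones and days. FABP5 had the lowest values, 0.50 to 0.72 with the other 7. After group means were removed, the 14 infarct libraries gave a median r of 0.54, with 0.92 for TREM2 and TYROBP, 0.83 for GPNMB and TYROBP, 0.82 for TREM2 and APOE, and -0.60 for APOE and FABP5. The 14 remote libraries gave a median of 0.21. These values share libraries and scaling and are a description.

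Genes outside the 8 whose level followed them most closely over all 28 libraries were NPC2, IFI30, FCER1G, SCPEP1, SLC43A3, SLC43A2, CTSH, LAT2, CTSS and DOK2, each with a Pearson r of 0.99 to the mean standardized level of the 8 genes among 15401 genes. NPC2 moves cholesterol out of lysosomes, IFI30, SCPEP1, CTSH and CTSS are lysosomal enzymes, and FCER1G is an adaptor of the same kind as TYROBP. Within infarct libraries after removal of group means, the closest were CARD9 (0.97), AMBN (0.96), CD37 and PRKCD (0.95), RALGDS, CMTM7, CD72, PIK3CD and LRRC25 (0.94) and 1 gene without a symbol, ENSSSCG00000028501 (0.93), over 14 libraries. CARD9, which was on the TREM2-TYROBP signalling list, links such receptors to the activation of NF-kappaB.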

How the data were processed

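RNA from 28 frozen zones of 14 pigs was sequenced, and groups and animals were taken from the sample labels. The authors trimmed reads with cutadapt, aligned them to Sscrofa11 with STAR 2.7.3a, removed reads that shared a molecular identifier with Picard 2.22.4 and counted uniquely aligned reads per gene with HTSeq. The deposited values used here are raw counts per gene, which no normalization had changed. The authors' normalized tables were not used. No per-sample column was left unmapped. The column of animal 577 headed with a letter B was read as its infarct zone, since its title goes with it, the animal's other sample is the remote zone and a supplementary table of the study heads the same values as infarct zone.

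Counts were scaled by TMM and tested with edgeR 4.0.16 (R 4.3.3) by a quasi-likelihood model after filterByExpr, over 15409 genes. The design held a term for each animal and an infarct term for each of the 4 combinations of treatment and day. Infarct libraries (14968 genes) and remote libraries (14324 genes) were fitted separately for treatment and day. The SE is approximate: the size of the log2 fold change was divided by the root of its F statistic. Zones are paired by animal in the labels: deviations from group means correlated between zones in all 14 animals (0.0696 to 0.683), and 13 infarct libraries correlated best with their own remote library (the exception was 571, 0.0696). That of 573 was among the 13 (0.228), but its Y-linked counts differed between zones, so this correlation does not settle its pairing. Replicates are animals. No library was a copy of another (highest correlation within a group 0.9939). Alternatives were DESeq2 1.42.0, other scalings, no filter, no block, own fits and leaving out each animal. The code was tested on simulated data.

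The 8 genes and the gene lists were chosen with earlier results of these data known. All 8 genes are reported in every library. From each list at most 4 genes are named, those with the largest change among called genes, and partners of the 8 genes. SPI1, NR1H3, TFEB, TFE3, the resident macrophage genes, CCR2, VWF, SOX10, ADIPOQ, NUPR1 and the fibroblast and cardiomyocyte genes were named after their values were seen. Symbols missing from the tables were not analysed here. Promoters came from RefSeq, Sscrofa11.1, whereas the authors counted on an Ensembl annotation.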

Additional observations from a re-analysis of the deposited data

Results flagged for a closer look

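In the groups of 4 animals, 48 sets of values (each gene in each zone and day of the Agrin groups, and the log2 ratios between zones) were checked for a value far from the other 3, and chance marks about 1 in 20. In the remote zone of day 28 Agrin animals, SPP1 of animal 548 stood above the others at 15 CPM. In the infarct zone of the same group, GPNMB of animal 519 stood below the others at 2.19 CPM.

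The infarct response differed between days by a test of the difference itself, in Agrin animals for SPP1 (-8.76), GPNMB (-7.23), TREM2 (-5.76), CD68 (-4.42), APOE (-4.01), TYROBP (-3.64), LGMN (-2.82) and FABP5 (-1.07), and in PBS animals for SPP1 (-8.44), GPNMB (-3.91), TREM2 (-3.24), CD68 (-3.03), TYROBP (-2.97), LGMN (-2.54) and FABP5 (-1.67), all log2 values of day 28 against day 3. It differed between Agrin and PBS animals at day 28 for TREM2 (-2.36). These comparisons share libraries with the zone comparisons.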

How the results depend on the processing

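For the zones at day 3 and for day 28 against day 3 in the infarct, the count of called genes stayed within 1.5 times its value under all alternatives run. It was 7 to 8 of 8 between zones at day 3 in both treatments and, for day 28 against day 3, 7 to 8 (Agrin response), 6 to 8 (PBS response), 7 (Agrin infarct) and 7 to 8 (PBS infarct) when 1 animal was left out. The day 28 results were less stable. Between zones in PBS animals, 5 genes were called, 3 without the pairing of zones by animal (no replicate block), 0 when only that group was fitted, and 2 to 6 when 1 animal was left out (TREM2 and CD68 without animal 523, and FABP5, called lower, as the sixth without 547). The response of Agrin against PBS at day 28 gave 1 gene, 4 with DESeq2, 2 with library totals alone, 0 without the replicate block and 0 to 3 when 1 animal was left out. Agrin against PBS in the infarct zone at day 28 gave 4 genes, 6 with DESeq2 and 1 to 6 when 1 animal was left out.

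Over all genes, the day 28 PBS zone comparison called 1207 genes, 629 without the block, 4 when only that group was fitted and 381 without animal 523. The day 28 response of Agrin against PBS called 75, 409 with DESeq2, 585 with library totals alone, 1 without the block and 3 to 342 when 1 animal was left out. The infarct zone of Agrin against PBS at day 28 called 643, 991 with DESeq2, 1215 with library totals alone and 114 to 1228 when 1 animal was left out. With library totals alone, the median over all genes moved to -0.70 (Agrin) and -0.31 (PBS) for the response of day 28 against day 3, and to 0.33 between zones in day 28 PBS animals.

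The signs that turned all belonged to values that were not called. Between zones in day 28 Agrin animals, GPNMB was -0.01 without the block (-0.33, -0.11 and -0.03 without 522, 544 and 548), and when 1 animal was left out the ranges were -0.33 to 0.70 for GPNMB, -0.07 (without 522) to 0.93 for SPP1 and -0.13 (without 548) to 0.19 for CD68. For the response of Agrin against PBS at day 3, APOE was 0.46 without the block, and 0.54, 0.33 and 0.17 without 571, 575 and 577 (lowest -1.50, without 573). FABP5 was -0.22, -0.05 and -0.09 without 573, 576 and 577 (highest 0.25, without 575), and GPNMB was -0.01 without 576 (highest 0.57, without 570). In remote zones, GPNMB was 0.65 without 547 (lowest -2.26) in Agrin against PBS at day 28, and APOE without 573 was 0.99 in Agrin against PBS at day 3 (lowest -1.33) and 0.67 in day 28 against day 3 in PBS animals (lowest -1.65). The cause of these changes was not tested. With 3 or 4 animals a group, differences of low genes such as TREM2 in remote tissue rest on few counts.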
